A study of Mus musculus with 79 samples.

Results

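The 9 genes described here encode parts of the neuromuscular junction or are known to respond when muscle loses its nerve: Chrna1, Chrnb1, Chrnd, Chrne, Chrng, Musk, Ncam1, Runx1 and Gadd45a. They were chosen by symbol from the 22335 named genes (35556 probesets) of an Affymetrix Mouse Gene 1.0 ST array, and all 9 were on it. Ncam1 had 2 probesets and was represented by the brighter, and each other gene had 1. RNA came from quadriceps of male mice of the BXD family, inbred strains descended from a cross of C57BL/6J with DBA/2J, and from both parents. Mice ate a chow diet (CD) throughout, or a high fat diet (HFD) from 8 weeks of age, and were killed at 29 weeks after a night without food. Each array held RNA of about 5 mice of one strain on one diet, mixed in even amounts, so the spread between mice of a strain was not measured and each p-value measures the spread between pools. There were 42 CD pools and 37 HFD pools. Of the 42 strains, 37 had a pool on each diet and 5 had a CD pool alone. RNA was extracted and arrays were run in 2 batches. Batch 1 held 18 CD and 17 HFD pools, and batch 2 held 24 CD and 20 HFD pools.

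Acetylcholine released by the motor nerve opens a receptor that muscle clusters beneath the nerve ending. The adult receptor is built from alpha (Chrna1), beta (Chrnb1), delta (Chrnd) and epsilon (Chrne) subunits, and in fetal muscle the gamma subunit (Chrng) stands in the place of epsilon. The kinase MuSK, driven by nerve-derived agrin through Lrp4, gathers the receptor. When a fibre loses its nerve, receptor genes that were silent outside the junction are switched on again along the fibre, together with the adhesion molecule Ncam1, the transcription factor Runx1 and the stress-response gene Gadd45a. Ncam1 is also made by Schwann cells and satellite cells. In a whole-muscle pool, a change in the number of cells that make a transcript and a change in transcript per cell cannot be told apart.

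Values were scores per probeset, treated as logs, on one scale for all arrays (mean 8, SD 2). Because the log base was not stated, folds were computed as powers of 2 and are called nominal. Scores of different genes come from different probes and were not compared with each other. The arrays were muscle by their markers: Acta1, Ckm, Myh4, Myh1, Ttn, Mylpf, Tnnt3 and Des averaged 14.35 to 14.66 on every array, and none of the 8 differed between diets by limma (0 at an adjusted p below 0.05 and 0 at an unadjusted p below 0.05). Several arrays stood apart. The HFD pool of BXD79 had 4.32% of all probesets more than 3.5 robust units from the HFD median, the highest share of the 37, ahead of BXD69 with 4.17%. A robust unit is the scaled median absolute deviation. Strain BXD63 went against the others: among probesets called between diets, the sign of its own difference matched the fit for 34.2%, against 58.1% to 84.6% in the other strains. Whether the diet labels of its 2 pools were exchanged was not tested, and its values are given as labelled. Diet calls and pair calls that rest on BXD79 or BXD63 are given with and without them.

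The upstream sequences of 4 receptor genes are shown to set the adult and fetal subunits side by side, and because muscle factors are known to bind 2 short motifs in such promoters. Myogenic factors such as MyoD and myogenin bind the E-box, CANNTG, and factors of the Ets family such as GABP bind the N-box, CCGGAA, in genes expressed beneath the nerve. The windows come from RefSeq on build GRCm38.p6 and stop before the outermost annotated start of the gene. Capitals mark E-boxes and N-boxes found on either strand, and CAGCTG is 1 form of the E-box.
Chrna1, chr2:73580339-73580588, minus strand: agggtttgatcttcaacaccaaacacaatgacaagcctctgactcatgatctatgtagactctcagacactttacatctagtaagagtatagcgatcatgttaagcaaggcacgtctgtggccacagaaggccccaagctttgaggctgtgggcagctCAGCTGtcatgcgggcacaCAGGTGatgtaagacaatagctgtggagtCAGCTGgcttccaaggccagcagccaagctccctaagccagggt
Chrng, chr1:87205561-87205810, plus strand: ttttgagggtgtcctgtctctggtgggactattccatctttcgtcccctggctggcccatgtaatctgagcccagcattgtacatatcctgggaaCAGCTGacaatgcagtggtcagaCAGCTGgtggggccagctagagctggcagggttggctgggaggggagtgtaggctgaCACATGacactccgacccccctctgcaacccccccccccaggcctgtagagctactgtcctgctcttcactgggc
Chrnb1, chr11:69795967-69796187, minus strand: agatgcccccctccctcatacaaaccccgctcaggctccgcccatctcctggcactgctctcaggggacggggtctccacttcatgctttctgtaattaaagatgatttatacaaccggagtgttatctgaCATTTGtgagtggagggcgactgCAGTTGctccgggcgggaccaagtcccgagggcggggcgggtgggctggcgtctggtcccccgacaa
Chrne, chr11:70619214-70619444, minus strand: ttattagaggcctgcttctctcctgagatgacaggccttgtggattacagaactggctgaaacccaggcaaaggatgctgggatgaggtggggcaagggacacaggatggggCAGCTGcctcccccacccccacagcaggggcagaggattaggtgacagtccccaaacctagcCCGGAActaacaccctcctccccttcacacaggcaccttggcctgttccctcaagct

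RefSeq windows were matched for 7 of the 9 genes, all but Chrnd and Ncam1. In the 250 bases before the start, Chrna1 and Chrng each held 3 E-boxes, of which 2 were CAGCTG. Chrnb1 held 3 E-boxes, 1 of them outside the printed stretch, and none was CAGCTG. Chrne held 1 CAGCTG E-box and 1 N-box, the latter 76 bases before the start. Among windows not printed, Musk and the first Runx1 window held 3 E-boxes each, of which 1 in Musk was CAGCTG. Gadd45a held 1 E-box and 1 N-box, and the second Runx1 window held 1 N-box. Among 32851 promoter windows of the same length, 66.2% held at least 1 E-box, 12.2% held 3 or more, 13% held CAGCTG, 1.26% held it 2 or more times and 12% held CCGGAA. These matches describe letters, and binding was not measured.

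The first comparison asked whether HFD moved these genes. Of the 9 genes, 5 were higher in HFD: Chrnb1, Chrnd, Chrng, Ncam1 and Runx1. None was called lower. Over all probesets limma called 38.1%, with 18.9% higher and 19.3% lower in HFD. The 5 differences were small, from 0.11 to 0.17 units (nominal folds of 1.08 to 1.13). The median difference of the 9 genes was 0.13 units, and over all probesets it was -0.00066. The score ranges of the diets overlapped for every gene.

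**Figure D1:**
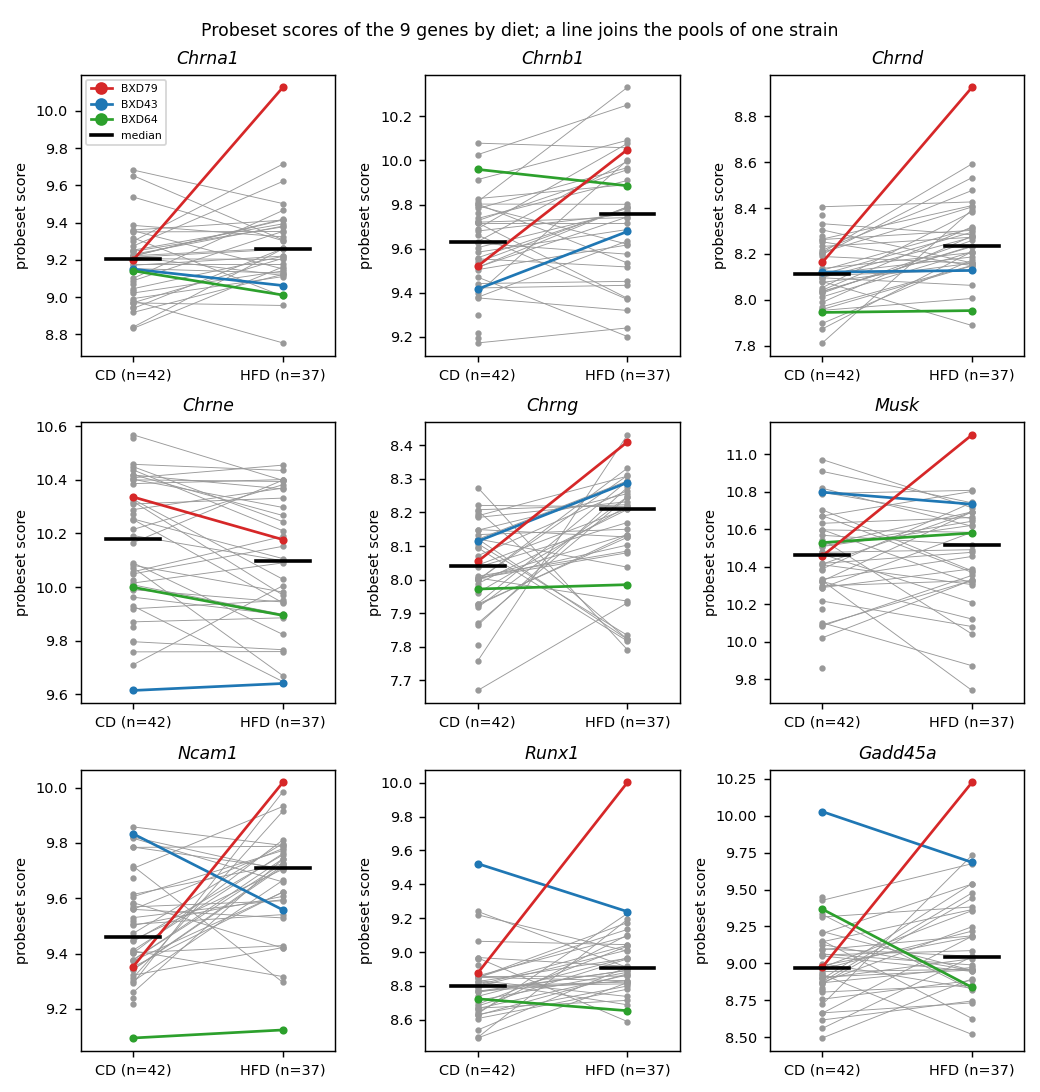
Probeset score (vertical axis) of each of the 9 genes in CD and HFD pools; dots are pools, a line joins the 2 pools of a strain, and black bars are medians. The HFD pool of BXD79 (red) is the highest HFD pool for Chrna1, Chrnd, Musk, Ncam1, Runx1 and Gadd45a, while BXD43 (blue) is the highest CD pool for Runx1 and Gadd45a and the lowest for Chrne on both diets.

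Of the 5 receptor subunits, Chrnd, the delta subunit, was higher on HFD in the most strains. Its score ran from 7.81 (BXD51) through a median of 8.11 to 8.41 (BXD45) on CD, and from 7.89 (BXD68) through 8.23 to 8.93 (BXD79) on HFD. The difference was 0.15 units (SE 0.037, 95% interval 0.075 to 0.22, limma adjusted p = 0.000763), and Chrnd was higher on HFD in 31 of 37 strains. It was 0.13 in batch 1 alone (adjusted p = 0.0666) and 0.16 in batch 2 alone (adjusted p = 0.0245).

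Chrng, the fetal gamma subunit, lies next to Chrnd on chromosome 1, with 0 annotated genes between them. Its score ran from 7.67 (BXD96) through 8.04 to 8.27 (BXD69) on CD, and from 7.79 (BXD69) through 8.21 to 8.43 (BXD65) on HFD. BXD69 was thus the highest CD pool and the lowest HFD pool. Array medians were 7.78 to 7.92, and whether Chrng stood above background was not tested. The difference was 0.11 units (SE 0.035, 95% interval 0.038 to 0.18, adjusted p = 0.00991), and Chrng was higher on HFD in 28 of 37 strains. The call was lost in batch 1 alone, at 0.091 units (adjusted p = 0.339), and batch 2 alone gave 0.12 (adjusted p = 0.0296). On HFD, 7 pools lay between 7.79 and 7.94, below the next pool at 7.98 (BXD64). They were BXD69, BXD100, BXD63, BXD97, BXD98, BXD96 and BXD62. Of these, BXD69, BXD62, BXD98, BXD63 and BXD96 ranked 2, 3, 5, 6 and 7 of the 37 HFD arrays by the share of all probesets beyond 3.5 robust units, and the part of this was not tested. A mixture of 2 normal curves put these 7 apart but lowered the BIC by only 1.5, under the 10 required here to call clusters.

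Chrnb1, the beta subunit, ran from 9.17 (C57BL/6J) through 9.63 to 10.08 (BXD96) on CD, and from 9.20 (BXD70) through 9.76 to 10.33 (BXD44) on HFD. Its difference of 0.13 units (SE 0.055, 95% interval 0.022 to 0.24) lay at the edge of the threshold, with an adjusted p of 0.0494, and it was higher on HFD in 25 of 37 strains. The call was lost, with a difference of 0.12 units, without BXD79 (adjusted p = 0.0802). It was also lost with all strains in the methods' Student t-test (adjusted p = 0.0523). The difference was 0.16 in batch 1 alone and 0.11 in batch 2 alone, neither called. The main fit did not pair the pools of a strain. With strain as a replicate block the difference was 0.11 units, and it was called (limma adjusted p = 0.0125).

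The other 2 subunits were not called. Chrna1, the alpha subunit that binds acetylcholine, ran from 8.83 (BXD83) through 9.20 to 9.68 (BXD84) on CD, and from 8.75 (BXD98) through 9.26 to 10.13 (BXD79) on HFD. Its difference was 0.10 units (95% interval 0.0056 to 0.19, adjusted p = 0.0874), and it was higher on HFD in 23 of 37 strains. Without BXD79 it was 0.077 (adjusted p = 0.163). Chrne, the adult epsilon subunit, ran from 9.61 (BXD43) through 10.18 to 10.57 (BXD85) on CD, and from 9.64 (BXD43) through 10.10 to 10.46 (BXD73) on HFD. Its difference was -0.06 units (95% interval -0.17 to 0.051, adjusted p = 0.421), with a higher HFD value in 14 of 37 strains. With strain as a replicate block it was -0.066 (limma adjusted p = 0.0517). In the main fit Chrne was the only one of the 9 genes with a fitted value below 0.

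Musk, the kinase that organises the postsynaptic membrane, ran from 9.86 (BXD60) through 10.46 to 10.97 (BXD45) on CD, and from 9.74 (BXD51) through 10.52 to 11.10 (BXD79) on HFD. Its difference was 0.022 units (95% interval -0.094 to 0.14, adjusted p = 0.796), and 20 of 37 strains were higher on HFD. Without BXD79 it was 0.0046.

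Of the genes known to return after nerve loss, Ncam1 and Runx1 were called. Ncam1 ran from 9.10 (BXD64) through 9.46 to 9.86 (BXD66) on CD, and from 9.12 (BXD64) through 9.71 to 10.02 (BXD79) on HFD. BXD64 was lowest on both diets, and its HFD pool lay at -4.58 robust units from the HFD median. The difference was 0.17 units (SE 0.043, 95% interval 0.087 to 0.26, adjusted p = 0.000743), and Ncam1 was higher on HFD in 28 of 37 strains. Its other probeset gave 0.14 units (adjusted p = 0.0018). Within batches the difference was 0.16 in batch 1 (adjusted p = 0.0564) and 0.19 in batch 2 (adjusted p = 0.0254).

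Runx1 ran from 8.49 (BXD100) through 8.80 to 9.52 (BXD43) on CD, and from 8.59 (BXD63) through 8.91 to 10.002 (BXD79) on HFD. The difference was 0.15 units (SE 0.049, 95% interval 0.05 to 0.24, adjusted p = 0.0119), with a higher HFD value in 27 of 37 strains. It was 0.12 without BXD79 (adjusted p = 0.0183) and 0.16 without BXD63 (adjusted p = 0.00574). Within batches it was 0.13 in batch 1 (adjusted p = 0.185) and 0.16 in batch 2 (adjusted p = 0.0947).

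Gadd45a, a growth-arrest and DNA-damage gene that is strongly raised in denervated and fasted muscle, had the widest spread of the 9 (SD 0.28 on CD and 0.36 on HFD). It ran from 8.49 (DBA/2J) through 8.97 to 10.03 (BXD43) on CD, and from 8.52 (BXD63) through 9.04 to 10.23 (BXD79) on HFD. The difference was 0.14 units (95% interval -0.0002 to 0.28, adjusted p = 0.109), with a higher HFD value in 26 of 37 strains. It was 0.11 without BXD79 (adjusted p = 0.200) and 0.16 without BXD63 (adjusted p = 0.0715). Strain differences ranged from -0.53 (BXD64) to 1.25 (BXD79), with BXD68 next at 1.01. Both SDs include the highest pool, BXD43 on CD and BXD79 on HFD, and were not computed without it.

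**Figure D2:**
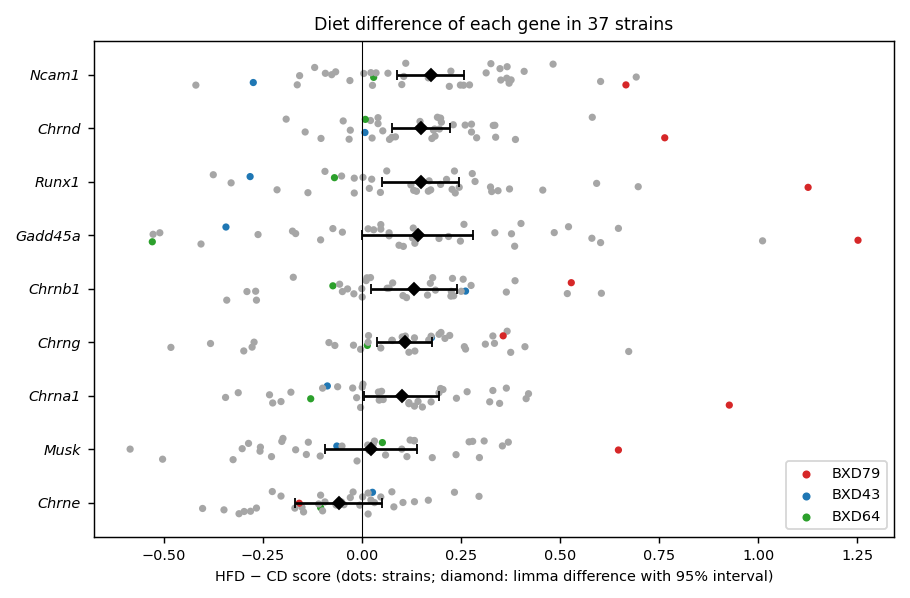
Difference in score, HFD minus CD (horizontal axis), for each gene; dots are the 37 strains with both diets, and the diamond with its bar is the limma difference with its 95% interval. Intervals of Ncam1, Chrnd, Runx1, Chrnb1 and Chrng pass the adjusted threshold, and BXD79 (red) has the largest single difference for Chrna1, Chrnd, Musk, Runx1 and Gadd45a.

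Counted by strain, a median of 6 of the 9 genes was higher on HFD. All 9 were higher in 2 strains, BXD55 and BXD73. No strain had fewer than 3 members higher, and the 2 strains with 3 were BXD63, as labelled, and BXD85. Without BXD63 the same 5 genes were called, and without BXD79 the call of Chrnb1 was lost.

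Other genes of the junction were called in both directions, as were all probesets (18.9% higher and 19.3% lower). Of 14 genes of the postsynaptic apparatus, 4 rose on HFD: Agrn, the agrin that muscle and nerve secrete (0.11 units, adjusted p = 0.00156), Lrp4, its receptor (0.092, adjusted p = 0.0139), the basal lamina chain Lamb2 (0.12, adjusted p = 3.97e-05) and the neuregulin receptor Erbb2 (0.093, adjusted p = 0.00256). In the same list 3 fell: Ache, the acetylcholinesterase that ends transmission (-0.26, adjusted p = 0.00019), the collagen Col13a1 (-0.13, adjusted p = 0.00286) and Dok7, the adaptor that activates MuSK (-0.085, adjusted p = 0.00248). The other 7 did not pass, among them Rapsn, the scaffold that holds receptors (0.066, adjusted p = 0.087). The list median was 0.027 units.

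Of 12 genes known from denervated or atrophying muscle, 2 rose and 2 fell, a share called near the 38.1% of all probesets. Dach2, a repressor of myogenin, rose by 0.32 units (adjusted p = 0.00156) and the embryonic myosin Myh3 by 0.088 (adjusted p = 0.0113). The ubiquitin ligases of muscle wasting, Trim63 and Fbxo32, fell by 0.34 (adjusted p = 0.0063) and by 0.17 (adjusted p = 0.0279). Myog, the gene of myogenin, had a difference of -0.11 (adjusted p = 0.0509). The list median was 0.029 units.

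**Figure D3:**
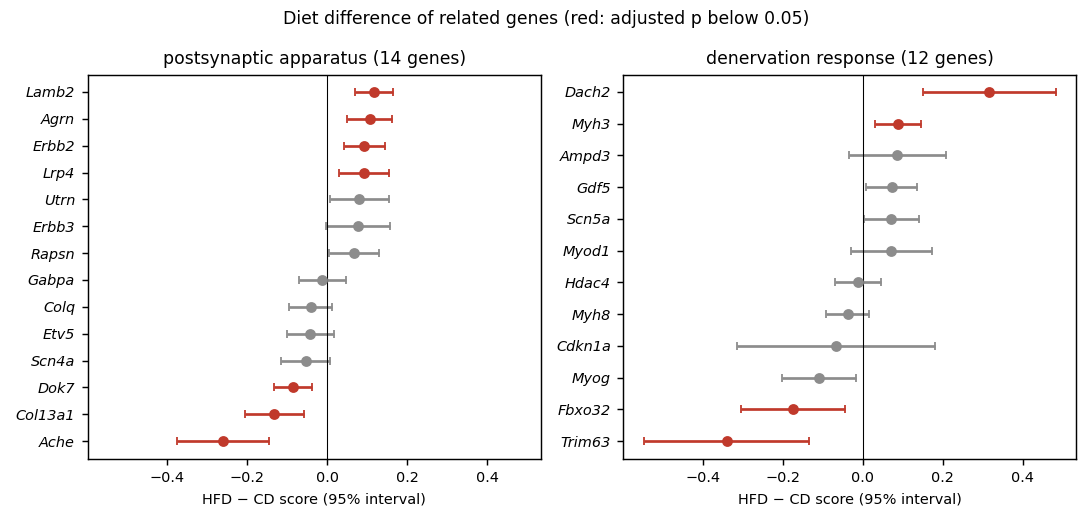
Difference in score, HFD minus CD (horizontal axis), with 95% intervals, for 14 genes of the postsynaptic apparatus and 12 genes of the denervation response; red marks an adjusted p below 0.05. In each list some genes lie above 0 and some below, with Ache at -0.26, Trim63 at -0.34 and Dach2 at 0.32.

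Marker lists of other cells were read against the same 38.1% of all probesets called between diets, 18.9% higher and 19.3% lower. Of 10 Schwann cell and nerve genes, Egr2 and Nefl rose and Sox10 fell, a share below that of all probesets, and the mean score of the list ran from 7.64 to 7.93 on CD and from 7.66 to 7.96 on HFD. Of 6 satellite cell genes, Pax7, Myf5 and Itga7 rose and Cdh15 fell, with list means from 8.43 to 8.66 on CD and from 8.51 to 8.75 on HFD. Of 8 leukocyte genes 5 rose and 2 fell, with list means from 8.12 to 8.69 on CD and from 8.36 to 8.97 on HFD. Of 8 adipocyte genes 6 rose and 1 fell, with list means from 9.27 to 10.77 on CD and from 9.42 to 11.23 on HFD. None of 7 slow fibre genes was called by limma (0 at an unadjusted p below 0.05). Scores were set to one scale on every array, with a lowest score of 2.63, so they do not show whether a marker was detected. The part of these cells in the differences of the 9 genes was not tested.

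The next question was which genes kept a strain's level across diets. A limma F-test over the 37 paired strains, with diet and batch in the model, called 3 of the 9 genes, against 13.6% of all probesets. They were Chrne (adjusted p = 3.38e-07), Chrnb1 (adjusted p = 0.00134) and Musk (adjusted p = 0.00786). For Chrna1 the adjusted p was 0.0804, and it was 0.0314 without BXD79. Chrnd, Gadd45a, Runx1, Ncam1 and Chrng had adjusted p-values of 0.107, 0.180, 0.316, 0.495 and 0.928.

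For each gene the CD and HFD scores of a strain were set against each other after batch means were removed, which gave 9 relations over 37 strains. For Chrne Pearson's r was 0.77 and Spearman's rho 0.76, each with a permutation p of 1e-05, the smallest that 100000 permutations can give. Leaving out the 2 strains whose CD score lay farthest from the median gave 0.76. It was 0.82 among the 12 strains with both pools in batch 1, 0.74 among the 17 in batch 2 and 0.97 among the 8 split between batches. BXD43 was lowest on both diets, and 7 of the 10 lowest strains and 6 of the 10 highest were shared by the diets.

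For Chrnb1 r was 0.59 (permutation p = 9.0e-05) and rho 0.55 (permutation p = 0.00064), and r was 0.51 without the 2 farthest strains. Strains with both pools in batch 1 gave 0.73, those in batch 2 gave 0.40 and those split between batches 0.54. For Musk r was 0.51 (permutation p = 0.00149) and rho 0.50 (permutation p = 0.0017), and r was 0.49 without the 2 farthest. The same 3 sets of strains gave 0.67, 0.32 and 0.68. Over all probesets the median r was 0.14, and 7.77% reached 0.5.

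For Chrna1, r was 0.36 (permutation p = 0.0276) and rho 0.48 (permutation p = 0.00315). Its r was 0.35 without the 2 farthest strains, 0.46 without BXD79, and 0.52, 0.31 and 0.45 in the same 3 sets. For Chrnd, r was 0.33 (permutation p = 0.0483) and rho 0.37 (permutation p = 0.0233). Its r was 0.38 without the 2 farthest strains but 0.074 in batch 1, against 0.38 in batch 2 and 0.66 among the split strains. These 2 genes thus had positive relations at an unadjusted p below 0.05 without a strain call in the F-test. The other 4 did not reach that level. Gadd45a had an r of 0.25 (permutation p = 0.133) and a rho of 0.12 (permutation p = 0.473), Runx1 an r of 0.17 (permutation p = 0.278) and a rho of 0.18 (permutation p = 0.288), and Ncam1 an r of 0.10 (permutation p = 0.551) and a rho of -0.021 (permutation p = 0.902). Chrng had the only negative r of the 9, at -0.22 (permutation p = 0.182), with a rho of -0.17 (permutation p = 0.318). It shared 2 of the 10 lowest and 1 of the 10 highest strains.

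The parents did not differ in any of the 9 genes by limma (0 of 9 called, 2 at an unadjusted p below 0.05, and 1.26% of all probesets called). Those 2 were Chrnb1 and Chrne, both on chromosome 11 with 70 annotated genes between them. Chrnb1 was 9.17 on CD and 9.24 on HFD in C57BL/6J, and 9.72 on each diet in DBA/2J. The difference, C57BL/6J minus DBA/2J, was -0.51 units (95% interval -0.82 to -0.19, adjusted p = 0.119). Chrne was 9.92 and 9.95 in C57BL/6J, and 10.17 and 10.40 in DBA/2J, with a difference of -0.35 (95% interval -0.59 to -0.11, adjusted p = 0.190). Each parent had 1 pool per diet.

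The genes were then compared with each other over strains, which gave 36 pairs on each diet. A pair was called when each gene predicted the other in a limma fit adjusted over all probesets. On CD 0 of 36 pairs were called, 5 passed at an unadjusted limma p below 0.05 and 6 at an unadjusted permutation p below 0.05. The share of all other probesets called with a gene on CD was 0% for Chrnd, Chrne, Ncam1 and Runx1, 0.00281% for Chrng and Musk, 0.00563% for Chrna1, 0.183% for Gadd45a and 2.03% for Chrnb1. The median r of the pairs was 0.15. The highest was 0.44, between Chrna1 and Chrne (rho 0.42, permutation p = 0.00321 and 0.00549). It was 0.42 without the 2 farthest strains, 0.36 in batch 1 and 0.50 in batch 2.

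On HFD 1 of 36 pairs was called, Runx1 with Gadd45a. The share of all other probesets called was 0% for Chrnd, Musk and Ncam1, 0.00281% for Chrna1 and Chrne, 4.35% for Runx1, 5.16% for Gadd45a, 8.91% for Chrng and 18.3% for Chrnb1. The r of Runx1 and Gadd45a was 0.70 (permutation p = 2.0e-05) and rho 0.52 (permutation p = 0.00125), with 0.58 in batch 1 and 0.75 in batch 2. Without the 2 farthest strains r was 0.49, and without BXD79 it was 0.55. On CD the same pair had an r of 0.33 (permutation p = 0.0357) and a rho of 0.11 (permutation p = 0.499). Without BXD43 that r was -0.0033, so the relation on CD rested on that strain.

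**Figure D4:**
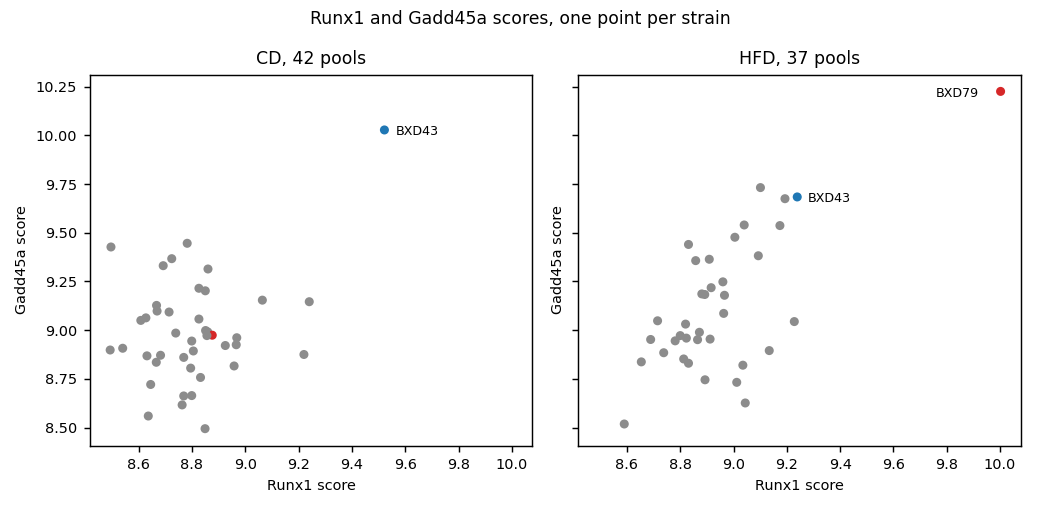
Score of Gadd45a (vertical axis) against Runx1 (horizontal axis), one point per strain, on CD (left) and HFD (right). BXD43 stands alone at 9.52 and 10.03 on CD, and BXD79 stands alone at 10.002 and 10.23 on HFD.

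Some other pairs on HFD fell further in r without BXD79. The r of Chrna1 and Runx1 was 0.67 (rho 0.44, permutation p = 0.00024 and 0.00715), with 0.17 in batch 1 and 0.80 in batch 2, the batch that holds BXD79. It fell to 0.40 without BXD79 and to 0.42 without the 2 farthest strains. The r of Chrna1 and Chrnd was 0.62 (rho 0.49, permutation p = 0.00022 and 0.00281), with 0.61 in batch 1 and 0.64 in batch 2, and it was 0.40 without BXD79 as without the 2 farthest. With BXD79, 15 of 36 pairs passed at an unadjusted limma p below 0.05. Without it limma called 0 of 36 pairs, so the call of Runx1 with Gadd45a was lost, and 12 passed at that level. The share of all other probesets called was then 0% for Chrna1, Chrnd, Chrne, Musk and Ncam1, 0.00281% for Runx1, 1.02% for Gadd45a, 13.4% for Chrnb1 and 24.4% for Chrng. The median r of the pairs was 0.25 with BXD79 and 0.15 without it.

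Chrnb1 and Chrng, the adult beta and fetal gamma subunits, gave the lowest r on HFD, -0.38 (permutation p = 0.0221), with a rho of -0.44 (permutation p = 0.0066). It was -0.38 in batch 1 and -0.39 in batch 2, and -0.42 without the 2 farthest strains. The pair was not called over all probesets. On CD its r was -0.05. Chrnb1 and Chrne had an r of 0.37 on CD (rho 0.37, permutation p = 0.0175 and 0.0159) and of 0.45 on HFD (rho 0.46, permutation p = 0.00533 and 0.00513), and neither was called. Within batches it was 0.58 in batch 1 and 0.16 in batch 2 on CD, and 0.61 and 0.33 on HFD. Without the 2 farthest strains it was 0.34 on CD and 0.44 on HFD.

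**Figure D5:**
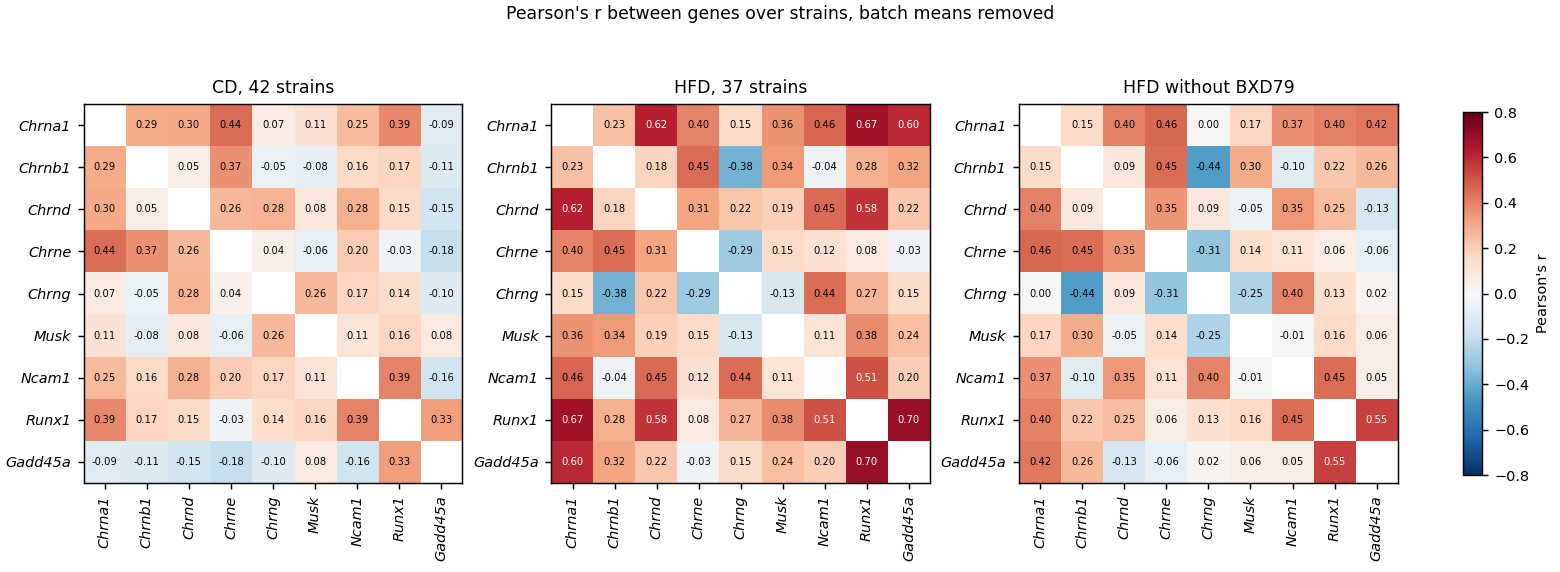
Pearson's r between each pair of the 9 genes over strains, with batch means removed, on CD, on HFD and on HFD without BXD79; red is positive and blue negative. Runx1 with Gadd45a is the highest pair on HFD, at 0.70, and is 0.55 once BXD79 is left out, while Chrnd with Gadd45a goes from 0.22 to -0.13.

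Among all other named genes, those with the closest pattern were taken from the CD pools and read again on HFD, as a description over 42 and 37 pools. For Gadd45a they were D230025D16Rik (r of 0.82 on CD and 0.89 on HFD), Tbc1d15 (0.71 and 0.78) and Sesn1 (0.70 and 0.82), a stress-response gene. For Chrnb1 they were Tmem214 (0.74 and 0.66), Letmd1 (0.73 and 0.66) and Ccnt1 (0.73 and 0.63). For Runx1 they were Tmem50a (0.64 and 0.58), 2810474O19Rik (0.61 and 0.65) and Smad5 (0.61 and 0.35). These genes were picked for a high r on CD, so a lower r on HFD is not a result. The values for Gadd45a and Runx1 include BXD43 on CD and BXD79 on HFD, which stood far out for both genes. They were not computed without these pools. The gene most like Chrne was Pmf1 (0.65 on CD and 0.013 on HFD), and the gene most like Chrnd was Snf8 (0.58 and -0.043). The gene most like Chrna1 was Slc31a1 (0.68 and 0.16), most like Chrng S1pr2 (0.72 and 0.41), most like Musk Il1r1 (0.71 and 0.31) and most like Ncam1 Slc24a6 (0.65 and 0.41). The pools share batch and array scale within each diet.

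Single pools far from the rest were looked for with a limit of 3.5 robust units. On CD, 2 of the 9 genes had such a pool, against 16.1% of all probesets. On HFD 5 of 9 had one, against 20.8%, and for the difference between diets 2 of 9, against 17.4%. With 1 exception, the low Ncam1 of BXD64, they belonged to 2 pools, BXD43 on CD and BXD79 on HFD, and to the difference of BXD79.

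The HFD pool of BXD79 lay 7.16 robust units above the HFD median for Runx1, 5.62 for Chrnd, 4.79 for Chrna1 and 3.91 for Gadd45a. It was also the highest of 37 for Ncam1 and Musk, the second for Chrng and the sixth for Chrnb1, and only Chrne, at 10.18 against a median of 10.10, ranked as low as 16. The CD pool of the same strain was unremarkable, with Runx1 at 8.88 against a median of 8.80 and Gadd45a at 8.97 against 8.97. The differences, HFD minus CD, were 1.25 for Gadd45a, 1.13 for Runx1, 0.93 for Chrna1, 0.76 for Chrnd, 0.67 for Ncam1 and 0.65 for Musk. They were 0.53 for Chrnb1, 0.36 for Chrng and -0.16 for Chrne.

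Genes outside the 9 were also displaced in that pool. Myog (7.85 against a median of 7.48), Ampd3 (10.44 against 9.38), Trim63 (13.28 against 12.03) and Myh3 (7.79 against 7.41), all of the denervation list, were the highest of 37. In that list 4 of 12 genes lay more than 2 robust units above the median and 1 below, and in the postsynaptic list 0 of 14 lay above and 2 below. Of the 8 muscle markers 7 lay more than 2 units below, and their mean of 14.35 was the lowest HFD value. The adipocyte mean of 11.23 was the highest of 37 and the satellite cell mean ranked second. The leukocyte mean ranked 5, with Ptprc and Itgam the highest of 37. The Schwann cell and nerve mean ranked 30, with 1 of 10 genes more than 2 units above the median and 5 more than 2 below. Over all probesets 9.91% lay more than 2 units above the median and 14.8% more than 2 below. The part of each in the displacement of the 9 genes was not tested, and the pool has no replicate.

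The CD pool of BXD43 was displaced in fewer genes. Gadd45a lay 5.44 and Runx1 5.20 robust units above the CD median, and Ncam1, at 9.83, was second of 42. Chrna1 (9.15 against 9.20) and Chrnd (8.12 against 8.11) were near their medians, and Chrne, at 9.61 against 10.18, was the lowest. Trim63 (13.52 against 12.51) and Fbxo32 (13.99 against 13.50) were the highest of 42, while Myog was 7.65 against 7.59 and Dach2 ranked 41. None of these was displaced by more than 2 robust units: in the denervation list 0 of 12 genes lay more than 2 above the median and 0 below, as did 0 of 14 in the postsynaptic list, against 5.33% of all probesets above and 4.04% below. None of the 8 muscle markers lay more than 2 units from its median. The satellite cell mean of 8.43 was the lowest of 42 and the leukocyte mean ranked 36, and their part was not tested. The HFD pool of BXD43 kept part of the pattern, with Runx1 second (9.24) and Gadd45a in rank 3 (9.68) of 37 and Chrne again lowest (9.64).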

How the data were processed

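Quadriceps RNA pools of BXD strains were hybridised to Affymetrix Mouse Gene 1.0 ST arrays. The authors deposited 1 score per probeset, with the same mean and SD on every array. The submitters' notes name Affymetrix Expression Console; summarization, background method, log base and any batch correction are not given in the sources used here. Array medians were 7.78 to 7.92. Precision is limited by the number of arrays. The CD column BXD92 was matched to the title BXD92a.

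The 9 genes, lists and tests were chosen with earlier results of these data known. Models were fitted to all 35556 probesets with limma 3.58.1 in R 4.3.3 (diet and batch over 79 arrays; strain added over the 74 paired arrays; the score of 1 gene and batch within a diet) and p-values were adjusted by Benjamini-Hochberg at a threshold of 0.05. The tests had been planned for log values and were run on the scores, which were treated as logs. The fits were tested on simulated data. Permutation tests were two-sided, with 100000 draws in Python 3.11.15 and numpy 2.4.6, and clusters were looked for with scikit-learn 1.9.0. Named genes were the 9, their lists and, for each, the closest patterns on CD. Of the Schwann cell and nerve list, 2 genes are not reported here. The strain number pairs pools: both pools of a strain share an inbred genotype, and their deviations from the diet means correlated at a median r of 0.21 (33 of 37 above 0.1).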

Additional observations from a re-analysis of the deposited data

How the results depend on the processing

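The 5 diet calls among the 9 genes were kept without a batch term, with strain as a replicate block (5 called), without the parents, without BXD63, with limma-trend and with median centring, which moved the median of all probesets to 0.016 units. Chrnb1 alone was lost (4 called) with the methods' Student t-test, a second quantile normalization, removal of dim probesets, without BXD79 and without BXD79 and BXD43. Batch 1 alone called 0 of 9 (4 at an unadjusted p below 0.05) with the same 9 directions, and batch 2 alone called 3. Musk, not called, changed sign under the strain block, at -0.0053. The count of postsynaptic genes called was 7, and 2 in batch 1 alone. The count of denervation genes called was 4, and it was 1 in batch 1 alone, 1 in batch 2 alone and 2 with dim probesets removed, where fewer genes were tested. For pairs on HFD, where 1 was called, 2 were called without a batch term, 0 in batch 1 alone, 2 in batch 2 alone, 0 without the 2 farthest arrays, 3 with median centring and 0 without BXD79. The cause was not tested, beyond the smaller number of arrays in each batch. Counts of strain calls (3 or 4), parental calls (0) and CD pairs (0) stayed within 1.5 times. The fits without BXD79 or BXD43 were chosen after seeing the data. The number of arrays, and the 1 pool per strain and diet, limit precision.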
